A study of Mus musculus with 4 samples.

Results

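Of the 21338 regions called in the Meis ChIP of mouse forelimb (FL) buds, 1678 (7.86%) were single-summit regions whose summit lay at nearly the same base as that of a single-summit region of the hindlimb (HL) bud. A summit is the base of a called region at which the ChIP signal was highest. The members were selected on measured values: rows of a peak list that gave the same interval were taken as 1 region, and an FL region was kept when it had 1 summit, overlapped exactly 1 HL region by at least 1 bp, that HL region had 1 summit too, and the summits lay at most 25 bp apart in mm9. Overlap, number of summits and distance between summits are therefore given as a description of the choice and support nothing else. Each member lay in a different HL region, so the members also make up 1678 of the 16987 HL regions. Both lists are lenient, with p-values of the peak caller up to 0.022 in both limbs, so a region in them is a candidate and not an established site.

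The FL and HL buds came from wild-type C57BL/6 embryos at E10.5, at about 36 somites, and about 500 buds of each kind were pooled. Chromatin of the whole buds was precipitated with antibodies to Meis1 and Meis2, so the proteins cannot be told apart and any cell type of the bud could contribute. There was 1 ChIP library and 1 input library (chromatin before precipitation) per limb, read over 50 bp. Because each limb gave a single ChIP library, there is no replicate error, the limbs were not tested against each other, and what differs between them differs between these libraries.

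Meis1 and Meis2 are homeodomain proteins of the TALE class that bind DNA alone or with Pbx and Hox partners, and the hexamer TGACAG is their preferred site. In the limb bud they are proximal factors, and many of the regions they bind lie far from gene starts. A region with 1 summit is the simplest form such a region can take in a peak list, because the called interval holds a single maximum.

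The sequence under a member can be shown where its summit fell in a promoter. Of the members, 11 had a summit between 250 bp upstream and 50 bp downstream of a gene start placed in mm9, and RefSeq promoters (GRCm38.p6) were matched to 6 of these genes by an identical spacing to a neighbouring start in both builds. The promoters of Tbx18, a T-box transcription factor gene, of Eci1, an enzyme of fatty acid oxidation, and of Frem1, an extracellular matrix protein, are shown. The first 2 hold a searched motif beside the summit, and Frem1 was the one of the 6 with q at most 0.05 in both limbs. Each sequence runs 5′ to 3′ along the gene over 280 bases, from 250 bases before the start, with its position in GRCm38.p6, and capitals mark the motif. All other positions are in mm9.
Tbx18, chr9:87731231-87731510, minus strand: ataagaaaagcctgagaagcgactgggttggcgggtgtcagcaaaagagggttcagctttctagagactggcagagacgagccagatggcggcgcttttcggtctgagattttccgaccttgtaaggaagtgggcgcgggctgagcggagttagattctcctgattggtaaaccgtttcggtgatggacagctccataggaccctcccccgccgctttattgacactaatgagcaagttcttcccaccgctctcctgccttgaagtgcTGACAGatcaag
Eci1, chr17:24426433-24426712, plus strand: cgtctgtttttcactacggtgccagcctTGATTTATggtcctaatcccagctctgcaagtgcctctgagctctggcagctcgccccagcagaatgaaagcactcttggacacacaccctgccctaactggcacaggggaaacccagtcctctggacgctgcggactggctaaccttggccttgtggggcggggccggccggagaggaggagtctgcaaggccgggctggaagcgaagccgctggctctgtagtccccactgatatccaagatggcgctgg
Frem1, chr4:83021073-83021352, minus strand: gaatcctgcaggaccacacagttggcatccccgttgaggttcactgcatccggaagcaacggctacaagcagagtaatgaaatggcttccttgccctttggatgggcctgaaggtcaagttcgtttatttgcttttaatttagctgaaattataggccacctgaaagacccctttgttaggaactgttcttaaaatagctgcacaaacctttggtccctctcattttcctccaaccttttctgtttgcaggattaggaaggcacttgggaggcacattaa

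At Tbx18 the FL summit lay 24 bp and the HL summit 34 bp downstream of the start, and the hexamer TGACAG ran from base 18 to base 23 downstream, directly before the FL summit. The fold enrichment over input, which the peak caller computed as the ratio of ChIP signal to local background, was 3.65 in FLs and 2.42 in HLs. At Eci1 the FL summit lay 219 bp and the HL summit 227 bp upstream of the start, and the Hox-Pbx octamer TGATTTAT ran from 222 to 215 bp upstream, across the FL summit. Its fold was 4.17 in FLs and 1.74 in HLs. At both Tbx18 and Eci1 the q was above 0.05 in HLs. At Frem1 the FL summit lay 38 bp and the HL summit 58 bp downstream, with folds of 4.83 and 4.35, and none of the motifs was found.

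The search covered 5 motifs on both strands of the 300-base promoter windows. TGACAG was in 1 of the 6 matched promoters and in 19.2% of all 32851 promoters, and TGATTTAT was in 1 of the 6 and in 0.977% of all. The Pbx-Meis core TGATTGAC (0.77% of all promoters), the octamer TGATTGAT (0.746%) and the T-box site AGGTGTGA (1.28%) were in none of the 6. A match of these letters is a description of the window, and a missing one says only that the letters are not in it. Of the other members in promoters, the one at Otx1, a homeobox gene of the head, was the tallest, its folds being 9.49 (FLs) and 6.00 (HLs), with summits 31 and 40 bp downstream of the start. The member at Pds5b, a cohesin regulator, had 7.84 in FLs and 3.72 in HLs, and that at Ddx55, an RNA helicase gene, 5.17 and 2.20. The member at Krt5, a keratin of basal ectoderm, had 4.47 and 3.12. Both Ddx55 and Krt5 had a q above 0.05 in HLs. Il31ra, Kifap3, A730061H03Rik and Zkscan14 made up the rest, with folds between 2.06 and 3.95. Their q was above 0.05 in HLs, and in FLs too except at Zkscan14.

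The choice of 25 bp cut a continuous distribution. Of the 20027 FL regions with 1 summit, 3575 formed single-summit pairs with an HL region, and in these pairs the summits lay a median of 28 bp apart, with the middle 50% between 12 and 55 bp and a maximum of 335 bp. Among the members the median was 11 bp, and in 35 members the summit was the same base in both limbs. The FL summit had the higher coordinate in 842 members and the HL summit in 801, so the distances leaned to neither side. At the edge of the choice, 40 pairs had summits 25 bp apart, with a median fold of 3.96 in FLs and 3.38 in HLs, and 55 pairs had summits 26 bp apart, with 4.12 and 3.33. The pairs just outside were as tall as those just inside.

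**Figure D1:**
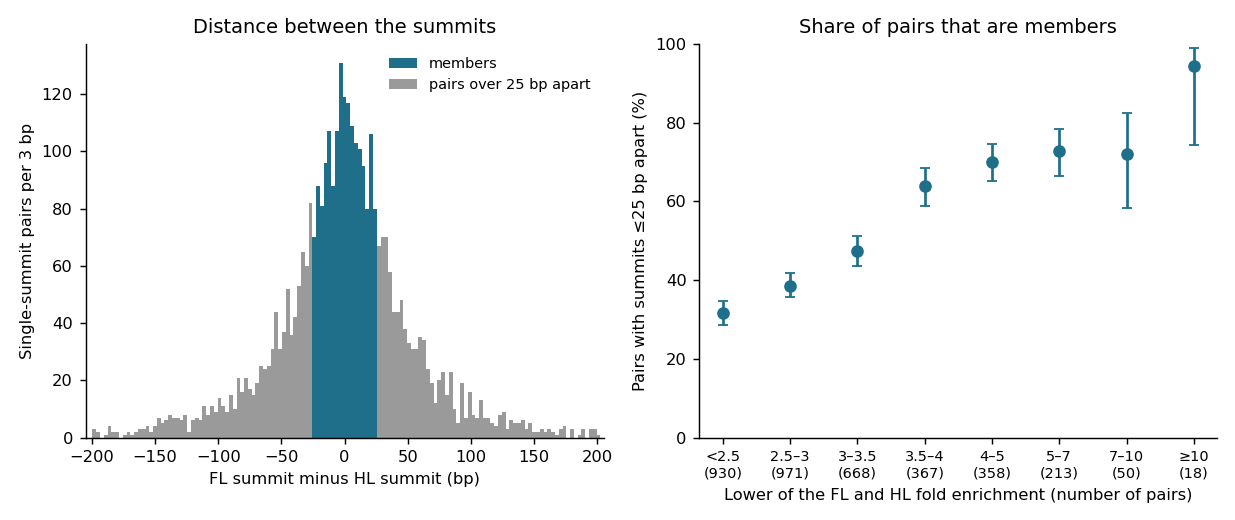
Left, number of single-summit pairs per 3 bp of distance between the FL and the HL summit, with the 1678 members in blue and pairs over 25 bp apart in grey (pairs beyond 200 bp are not drawn). Right, share of pairs that were members by the lower of the 2 folds, with 95% Wilson intervals and the number of pairs in brackets. The distances form a single peak around 0, and the share rises from 31.6% below a fold of 2.5 to 94.4% at 10 or more.

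Matching summits went with tall regions. When the 3575 pairs were ordered by the lower of their FL and HL folds, 31.6% (95% Wilson interval 28.7 to 34.7%) of the 930 pairs below 2.5 had summits at most 25 bp apart. The share was 47.3% (43.5 to 51.1%) between 3 and 3.5, 70.1% (65.2 to 74.6%) between 4 and 5, and 72.0% (58.3 to 82.5%) of the 50 pairs between 7 and 10. Of the 18 pairs at 10 or more, 17 were members. The median distance fell along the same classes from 43 bp to 11.5 bp. These intervals cover counting error only, and regions are not replicates of a condition.

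The same order appeared with the q of the peak caller. Among the 739 pairs that passed q at most 0.05 in each limb, 72.1% (68.8 to 75.2%) were members, with a median distance of 15 bp. Of the other 2836 pairs, 40.4% (38.6 to 42.2%) were members, with a median of 33 bp. The length of the overlap moved with it as well. Where the regions shared under 100 bp, 12.4% of 607 pairs were members, and where they shared 300 bp or more, 69.3% of 199 were, but the lower fold also rose between these classes, from a median of 2.53 to 5.38. Summits also sat near the middle of regions, so a short overlap tends to set them apart by construction. Height and overlap length were not separated here.

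The members were taller than most of the FL list. Their median FL fold was 4.11 (order-statistic 95% interval 3.96 to 4.17), against 3.25 (3.23 to 3.33) in the 1897 pairs with summits over 25 bp apart, 2.70 in the 16525 FL regions without an HL partner, and 4.30 (4.17 to 4.50) in the 1238 other shared regions, which had several summits or several partners in at least 1 limb. In HLs the members had a median of 3.57 (3.48 to 3.66) and the pairs over 25 bp apart 3.04 (2.96 to 3.07). The other shared HL regions had 3.54 (3.46 to 3.62), close to the members. The FL folds of members ran from 1.59 to 21.3 and the HL folds from 1.53 to 22.7, the highest HL value of all regions. Height was bound up with the choice, because tall regions are more often found in both lists, so these values carry no test.

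In FLs 59.9% of members had q at most 0.05, where the background over all FL regions was 17.4%, and in HLs 39.1% did, where it was 10.1%. The other shared regions, where the best summit counted, had somewhat higher shares, 64.7% in FLs and 41.1% in HLs. Such shares were therefore not particular to members. In both limbs together, q was at most 0.05 in 533 members (31.8%, 29.6 to 34.0%). The share was 20.7% of all single-summit pairs and 10.9% (9.54 to 12.3%) of the pairs over 25 bp apart. A further 472 members (28.1%) passed in FLs but not in HLs, 123 (7.33%) in HLs but not in FLs, and 550 (32.8%) in neither. About as many members thus passed in neither limb as in both.

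Folds took a limited set of values. The 22906 FL summits held 1854 distinct folds, and 1469 of them shared the value 2.53, with the next common values 0.177 apart. The 17810 HL summits held 1416 distinct folds, with common values 0.196 apart. A difference of less than about 0.2 between the limbs at a low fold is therefore within a single step of the scale.

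Members also filled much of the top of the FL list. Among the 100 FL regions with the highest folds, 35 were members, 8 were pairs with summits over 25 bp apart, 56 were other shared regions, 44 of them with several FL summits, and 1 had no HL partner. Among the first 500, 204 were members (40.8%, 36.6 to 45.2%), and among the first 2000, 661 were (33.0%, 31.0 to 35.1%), while the pairs over 25 bp apart numbered 68 and 365.

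The folds of the limbs were compared next. The median log2 ratio of FL to HL fold was 0.19 (0.16 to 0.23), that is, an FL fold 1.14 times the HL fold, and 1057 members (63.0%, 60.7 to 65.3%) were higher in FLs. In the pairs over 25 bp apart the median was 0.12 (0.10 to 0.15), and 60.4% were higher in FLs, so those pairs leaned to FLs too. The folds were within a factor of 2 of each other in 1502 members (89.5%), 147 were over 2 times higher in FLs and 29 over 2 times higher in HLs. The share within a factor of 2 was larger in the pairs over 25 bp apart, 93.1%, and where q was at most 0.05 in each limb it was 90.8% of members and 96.6% of those pairs. Over the 1678 members the log2 folds of the limbs had a Pearson r of 0.505 and a Spearman rho of 0.437. In the pairs over 25 bp apart the values were 0.371 and 0.284. Among pairs that passed q at most 0.05 in each limb the order was the reverse, with an r of 0.444 and a rho of 0.329 in 533 members and 0.509 and 0.429 in 206 pairs over 25 bp apart. These correlations run over regions of the same pair of libraries and are descriptions.

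**Figure D2:**
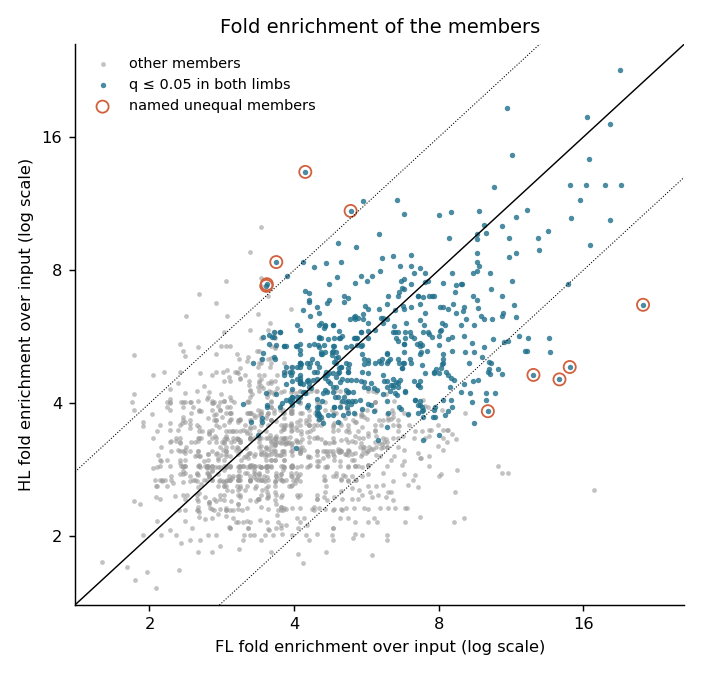
FL fold enrichment (x axis) and HL fold enrichment (y axis) of the 1678 members, both on log scales, with the 533 members of q at most 0.05 in both limbs in blue and the 10 named unequal members circled. The solid line marks equal folds and the dotted lines a factor of 2, and 1502 members lie between the dotted lines.

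The members were also split by the distance between their summits. The 774 members with summits 0 to 10 bp apart had a median log2 ratio of 0.20 (0.14 to 0.26) and a Pearson r of 0.524, and the 904 members 11 to 25 bp apart had 0.19 (0.16 to 0.23) and 0.486. The share with q at most 0.05 in both limbs was 34.4% (31.1 to 37.8%) and 29.5% (26.7 to 32.6%), with intervals that overlap.

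HL regions were the shorter ones in most members. The median length of a member was 230.5 bp in FLs (225 to 236) and 184 bp in HLs (178 to 188), and the FL region was the longer in 1180 members (70.3%). This was not particular to members, because the FL region was also the longer in 70.5% of the pairs over 25 bp apart. Regions without a partner in the other limb had medians of 154 bp in FLs and 121 bp in HLs. The median member shared 158 bp between the limbs, which was 74.0% of the FL region and 97.1% of the HL region. In 771 members (45.9%) the HL region lay wholly within the FL region, and in 240 (14.3%) the reverse held. The pairs over 25 bp apart were somewhat shorter, 214 bp in FLs (208 to 219) and 164 bp over their HL regions (159 to 168), and shared 59.9% of the FL region and 84.0% of the HL region. Summits sat near the middle: the median place was 48.6% of the way along the FL region and 48.7% along the HL region.

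By rule, 12 members were singled out as those with the highest value of the lower of their 2 folds. They ranked between 8 and 106 among FL regions by fold and between 1 and 45 among HL regions, and all had q below 0.05 in both limbs. Positions are those of the FL region in mm9. Genes are given as the nearest start that could be placed in mm9 from the distances in the study's list of genes at shared peaks, so an unplaced gene may be nearer.

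The tallest was chr2:125327145-125327806, whose fold was 19.1 in FLs and 22.7 in HLs, with summits 3 bp apart. It was the highest of all HL regions, and no placed start lay within 500 kb of it. The second was chr17:87634219-87634743, with 18.2 and 17.2 and summits 6 bp apart, also with no placed start within 500 kb. At both, the folds of the limbs were within a factor of 1.5.

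A member at chr16:30244016-30244639 had 16.3 in FLs and 17.7 in HLs with summits 3 bp apart. It lay 23.3 kb downstream of the start of Cpn2 and 179 kb downstream of that of Hes1, a repressor that acts downstream of Notch. At chr13:60108922-60109407, 170 kb downstream of the start of Gas1, a membrane protein that binds hedgehog ligands, the folds were 17.8 and 12.5 with summits 3 bp apart.

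A member at chr8:130920851-130921394 had 16.2 in FLs and 12.5 in HLs, 38.1 kb downstream of the start of Nrp1, a receptor for semaphorins and VEGF. At chr15:11749734-11750082, 85.5 kb downstream of the start of Npr3, the clearance receptor of natriuretic peptides, the folds were 15 and 12.4. These were higher in FLs by less than a factor of 1.5.

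At chr9:27898948-27899431, 301 kb downstream of the start of Opcml, a cell adhesion gene, the folds were 19.1 and 12.4 with summits 1 bp apart. The member at chr7:81516735-81517356, 182 kb downstream of the start of Slco3a1, an anion transporter gene, had 16.5 and 14.3. That at chr6:37595424-37595859, 116 kb downstream of the start of Akr1d1, had 15.8 and 11.5.

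The other members of the 12 that were higher in HLs, besides those on chromosomes 2 and 16 above, lay on chromosomes 15 and 1. At chr15:103135548-103136144, 5.03 kb downstream of the start of Gpr84, the fold was 11.1 in FLs and 18.6 in HLs, the second highest of all HL regions, with summits 5 bp apart. At chr1:92015715-92016366, 84.6 kb upstream of the start of Cxcr7, a chemokine receptor, it was 11.4 in FLs and 14.6 in HLs. The last of the 12, at chr8:27704509-27705138, had 12.2 and 11 with summits 25 bp apart, at the edge of the choice, and lay 383 kb upstream of the start of Zfp703.

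**Figure D3:**
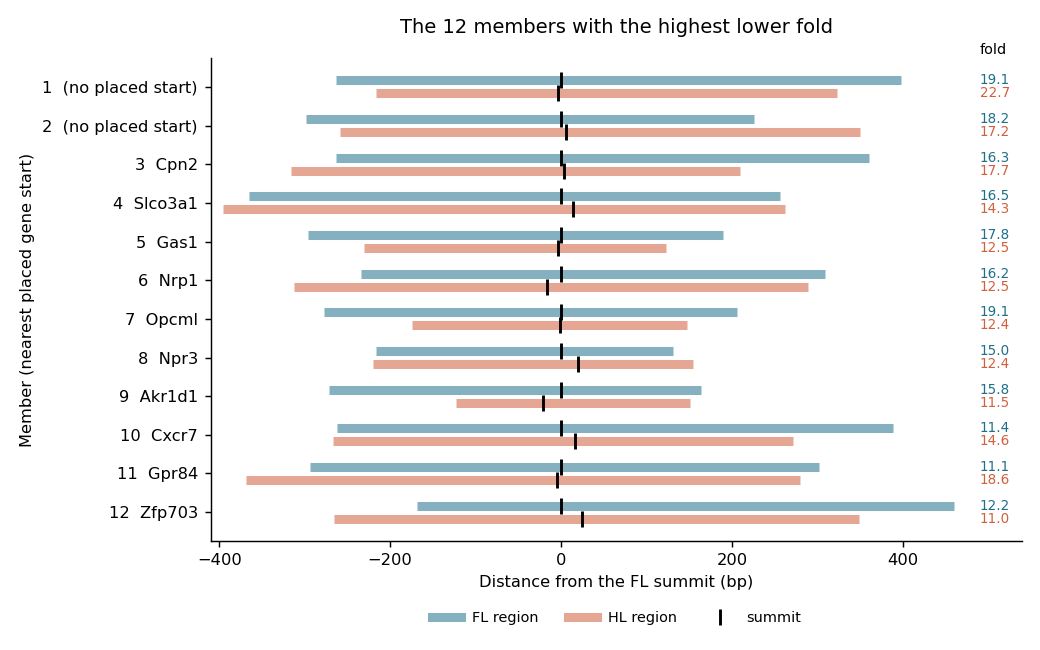
Extent of the FL region (blue) and the HL region (orange) of the 12 members with the highest lower fold, with black ticks at the summits, against the distance from the FL summit in bp, and with the folds at the right. The summits lie 1 to 25 bp apart.

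The largest inequalities were taken among the 533 members with q at most 0.05 in both limbs, 5 in each direction. This q left out many unequal members by construction, because a low fold in 1 limb tends to have a high q. Of the 147 members over 2 times higher in FLs it kept 41, and of the 29 over 2 times higher in HLs it kept 8. Some members left out had larger ratios toward FLs than any named here. Toward FLs, chr1:181403944-181404693, 43.9 kb downstream of the start of Smyd3, a lysine methyltransferase gene, had the highest FL fold of any member, 21.3, with 6.68 in HLs. The member at chr15:50756802-50757175, 35.5 kb upstream of the start of Trps1, a zinc finger repressor of skeletal development, had 12.6 and 4.64. At chr1:187554979-187555476, 276 kb from the nearest placed start, Slc30a10, the folds were 14.3 and 4.53.

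The other members of this direction were chr6:12308665-12309124, with 15 in FLs and 4.83 in HLs, and chr15:43634746-43635282, with 10.1 and 3.84. In these 5 the FL fold was between 2.64 and 3.19 times the HL fold, and the summits lay 10 to 20 bp apart.

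Toward HLs, chr1:78018364-78018582 had 4.22 in FLs and 13.4 in HLs, 175 kb downstream of the start of Pax3, the transcription factor gene of migrating muscle progenitors. Its HL fold was 3.16 times the FL fold, and the summits lay 6 bp apart. At chr7:36774411-36774664, 187 kb upstream of the start of Zfp507, the folds were 3.67 and 8.35, and at chr17:14634006-14634501 they were 5.25 and 10.9.

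At chr12:78584145-78584746, 244 kb downstream of the start of Fut8, the folds were 3.51 and 7.44, and at chr15:39877817-39878102, 103 kb upstream of the start of Lrp12, 3.50 and 7.37. In the last 4 the HL fold was 2.08 to 2.27 times the FL fold. These members were picked as extremes of 2 single libraries, so their ratios have no error.

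Members were scattered along all chromosomes in the lists, at 5.59 to 11.7% of the FL regions of each, and 13 were on X. The median distance from a member to the next was 266 kb, and 352 (21%) had another member within 50 kb. With members at most 50 kb apart joined, 98 members fell into 28 groups of 3 or more, 127 pairs were formed and 1326 members stood alone. The largest group, of 7, lay in the HoxB cluster, and 2 groups of 5 followed, in the HoxD cluster and on chromosome 9. Hox genes are homeobox genes that pattern the body axis and the limb.

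The HoxB group held 7 members over 101 kb (chr11:96132575-96233305, first to last FL summit), among 44 FL regions and 27 HL regions of that span. Of the FL regions, 7 were pairs with summits over 25 bp apart and 5 were other shared regions. The tallest in both limbs together was chr11:96187293-96187621, 2.82 kb downstream of the start of Hoxb3, with 8.53 in FLs and 7.88 in HLs and summits 2 bp apart. The member between Hoxb3 and Hoxb2, at chr11:96202365-96202638, had 10.2 in FLs and 4.65 in HLs. It was the one member of the group more than 2 times higher in FLs.

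The member 31.3 kb upstream of the start of Hoxb5 had 3.63 in FLs and 5.64 in HLs, and that 4.48 kb downstream of it had 3.22 and 4.39. The member 1.29 kb upstream of the start of Hoxb2 had 3.45 and 5.64, and that 5.41 kb downstream of it had 4.86 and 4.14. The last, 6.24 kb downstream of the start of Hoxb1, had 2.88 and 2.60 and a q of 1 in both limbs. The fold was thus higher in FLs in 4 of the 7 and in HLs in the other 3, and 5 passed q at most 0.05 in both limbs.

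The HoxD group held 5 members over 71.0 kb (chr2:74520335-74591303), all on the side of Hoxd12 away from Evx2. From the Hoxd12 side outward the folds were 5.84 in FLs and 3.15 in HLs at 7.35 kb from its start, then 3.78 and 4.0 at 39.7 kb, and 2.56 and 3.84 at 59.7 kb. They were 4.94 and 4.68 at 66.6 kb, and 5.50 and 3.79 at 78.3 kb. Of the 5 members, 2 passed q at most 0.05 in both limbs. The span held 16 FL regions in all, of which 4 were pairs with summits over 25 bp apart.

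The other group of 5, over 43.4 kb at chr9:60902561-60945985, was lower. A q of 1 in both limbs was given to 4 of its members, with folds of 2.40 to 3.17, and 3 of them lay side by side at 15.4, 15.8 and 16.1 kb from the first. The fifth had 4.83 in FLs and 3.27 in HLs. The nearest placed start was over 200 kb away.

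**Figure D4:**
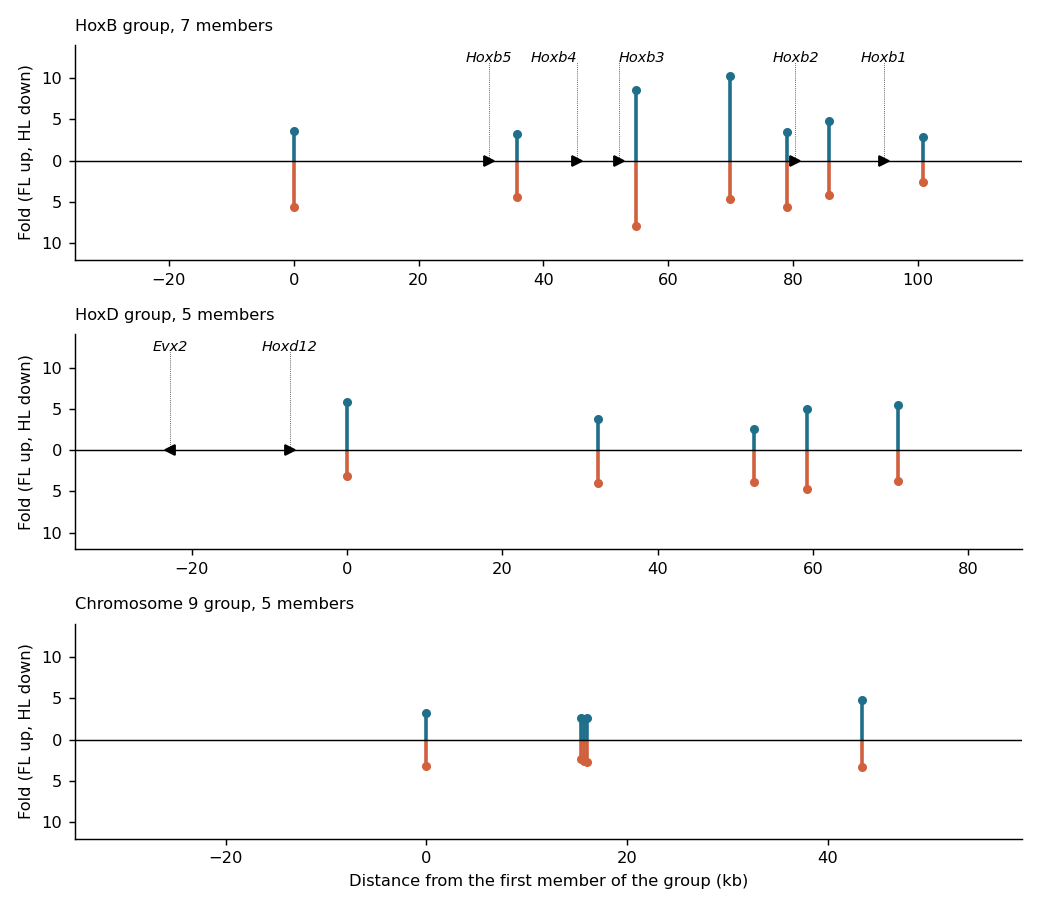
Fold enrichment in FLs (blue, upward) and HLs (orange, downward) of the members of the 3 largest groups, against the distance in kb from the first member, with placed gene starts as arrowheads pointing in the direction of transcription. The HoxB and HoxD members stand apart from each other, while 3 low members of the chromosome 9 group lie side by side.

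Genes of the limb were listed by role, and 72 of the 123 could be placed in mm9. A member lay within 100 kb of the start of 37 of these (51.4%), and 31.2% of all 2066 placed starts had a member within 100 kb. The placed starts come from a list of genes at shared peaks, so both shares are high by construction. Many of the 72 genes also had a pair with summits over 25 bp apart within 100 kb, so such nearness was not particular to members. The 37 genes had 53 members near their starts. The tallest of each gene gave 36 different members, since Tbx2 and Tbx4 share 1, with FL folds of 2.20 to 8.61 and HL folds of 1.99 to 8.08. The FL fold was the higher for 21 genes and the HL fold for 16, and q was at most 0.05 in both limbs for 17. Over all members the FL fold was the higher in 63.0%, and q was at most 0.05 in both limbs in 31.8%. Taking the tallest member of each gene favours a low q by construction.

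Genes of the proximal limb and girdle had a member in 9 of 13 cases. At Shox2, a homeobox gene of the proximal skeleton, it lay 46.1 kb downstream of the start and had 8.61 in FLs and 4.50 in HLs. At Zfp503, a zinc finger repressor gene, it lay 0.885 kb downstream, with 7.33 and 8.08 and summits 8 bp apart. At Tbx15, a T-box gene of the shoulder girdle, it lay 78.6 kb upstream, with 7.12 and 5.62. The highest of 3 members near Hoxa9 had 5.27 and 4.50. Members near Irx3, Irx5, Alx1, Alx4 and Lhx2 had a q above 0.05 in at least 1 limb, with folds of 1.99 to 5.31.

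Of 9 placed genes of antero-posterior patterning and hedgehog signalling, 6 had a member. All 9 had a pair with summits over 25 bp apart within 100 kb. At Gas1 the highest member within 100 kb lay 52.2 kb downstream of the start, with 4.29 in FLs and 6.85 in HLs and the summit at the same base. At Boc, another hedgehog co-receptor, it lay 64.2 kb downstream, with 7.23 and 3.09 and a q above 0.05 in HLs. The member shared by Tbx2 and Tbx4, T-box genes that lie next to each other, was 32.5 kb upstream of Tbx2 and 96.7 kb upstream of Tbx4, with 7.30 and 6.17. Hand1 had 4.51 and 5.61 at 71.4 kb downstream. Tbx3 had 3.24 and 4.13, with q above 0.05 in FLs, and Hoxd12 had the members described above.

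Of 10 placed genes of limb initiation and Fgf signalling, 4 had a member. Besides Tbx4 these were Dusp6, a phosphatase that dampens Fgf signalling, with 5.86 in FLs and 3.84 in HLs at 39.0 kb downstream, and Etv4, an Fgf target, with 4.83 and 3.80 at 30.6 kb upstream. The q was above 0.05 in HLs at Etv4. At Pitx1, the homeobox gene of HL identity, the member lay 76.8 kb downstream and had 2.20 in FLs, with a q of 1, and 4.10 in HLs, with a q of 0.0462. Tbx5, Isl1, Fgf9, Fgfr1 and Fgfr2 had none within 100 kb.

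At Fgf10, the mesodermal Fgf that starts bud outgrowth, both single-summit pairs fell outside the choice. The taller, at chr13:119510457-119511045, had 13.1 in FLs and 9.92 in HLs with summits 52 bp apart, and the other, with 3.08 and 4.55, missed by little, at 28 bp. The 3 pairs around Hand2, a posterior determinant, had summits 31, 33 and 61 bp apart. Of the 35 placed genes without a member, 18 had at least 1 such pair within 100 kb.

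Of the 12 placed Wnt genes, 4 had a member (33.3%), near the 31.2% of all placed starts. Lef1, an effector of the pathway, had neither a member nor a pair with summits over 25 bp apart within 100 kb. At Wnt2 it lay 66.4 kb upstream, with 5.71 in FLs and 6.07 in HLs, and at Dact1, a Wnt modulator, 51.2 kb upstream, with 5.39 and 5.62. The folds of the limbs were close at both. At Tcf7l1, a transcriptional effector of the pathway, they were 5.28 and 2.57, and at Sfrp1, a secreted inhibitor, 5.18 and 3.27, with q above 0.05 in HLs at both.

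Among Meis and its partners, 3 genes had a member within 100 kb. At Meis1 itself the FL summit lay 0.07 kb downstream of the start, with folds of 4.11 in FLs and 5.45 in HLs and q at most 0.05 in both. At Pbx3, a partner gene, the member lay 4.91 kb downstream, with 3.53 and 4.19 and summits 25 bp apart, and at Pknox2 61.8 kb downstream, with 3.76 and 3.06. The q was above 0.05 in FLs at Pbx3 and in both limbs at Pknox2. Meis2 and Pknox1 had none in that window.

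The remaining lists gave fewer. Of 4 placed BMP genes, Id2, a target that encodes an inhibitor of bHLH factors, had a member 2.68 kb upstream of the start, with 8.30 in FLs and 4.71 in HLs and the summit at the same base. Grem1, a BMP antagonist, had 4.11 and 3.66 at 84.1 kb downstream, with q above 0.05 in HLs. Of 5 placed retinoic acid genes, Aldh1a2, which makes retinoic acid, had 3.92 and 4.71 at 14.5 kb downstream, and Rarb, a receptor, 3.16 and 2.55. The q was above 0.05 in both limbs at Rarb.

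Of 8 cartilage and mesenchyme genes, Sox6 had 4.95 in FLs and 5.63 in HLs at 10.8 kb downstream, and Sox9, the master gene of cartilage, 3.53 and 6.98 at 45.2 kb upstream, with q above 0.05 in FLs. Twist1, a bHLH factor of mesenchyme, went the other way, with 6.79 and 2.32 at 10.4 kb downstream and q above 0.05 in HLs. Prrx1 had 4.25 and 3.44, with q above 0.05 in HLs.

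Genes of other cells that a bud holds had members too, in 3 of 5 placed cases. Wnt7a, a signal of dorsal ectoderm, had 4.65 in FLs and 5.22 in HLs, and passed in both limbs. The highest member near Pax3 within 100 kb had 3.63 and 3.13, and that near Lbx1, another gene of muscle progenitors, 2.53 and 3.28 at 1.04 kb downstream. Their q was above 0.05 in HLs at Pax3 and in both limbs at Lbx1. Which cells of the bud gave the signal at any member was not tested.

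**Figure D5:**
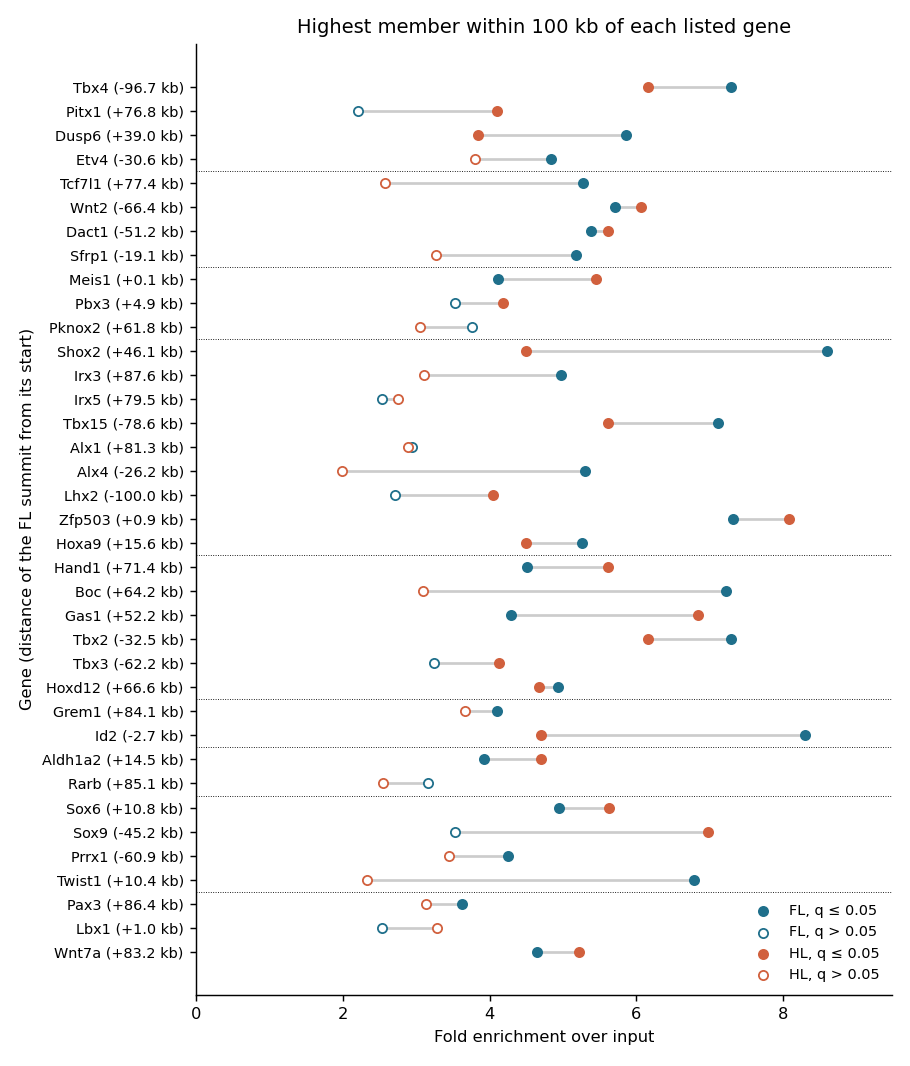
Fold enrichment over input in FLs (blue) and HLs (orange) of the member with the highest lower fold within 100 kb of each of 37 listed genes, with filled points where q was at most 0.05 and dotted lines between the lists. In brackets is the distance of the FL summit from the gene start, negative upstream. The FL point is the higher for 21 genes and the HL point for 16.

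The distances to genes were like those of other shared peaks. Of the members, 597 were among the 1984 shared peaks with a listed gene used here. The nearest listed start was under 5 kb away for 8.38% of them (6.41 to 10.9%), 5 to 50 kb for 29.3% (25.8 to 33.1%), 50 to 500 kb for 58.3% (54.3 to 62.2%) and over 500 kb for 4.02% (2.72 to 5.91%). For the other 1387 peaks the shares were 8.94, 28.2, 57.3 and 5.55%, all inside those intervals.

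A list of 618 regions common to the binding sites of Tbx5 and Hoxc10, T-box and Hox factors of the limb bud, was compared with the members. It was used because Meis is not among the factors that define it. In the study the Tbx5 sites came from FLs and the Hoxc10 sites from HLs, so binding of both in the same bud was not measured. Such a region had its middle at most 100 bp from the FL summit in 124 members (7.39%, 6.23 to 8.74%), and the background over all FL regions was 2.31%. The share was 4.01% (3.21 to 4.99%) in pairs with summits over 25 bp apart, 16.1% (14.1 to 18.2%) in the other shared regions, where any summit counted, and 0.569% (0.465 to 0.696%) in FL regions without an HL partner. These 124 members covered 20.1% of the list. Their median distance to the middle was 24 bp, and 65 of them (52.4%) lay within 25 bp.

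Members at Tbx5-Hoxc10 regions were also the taller ones, with a median fold of 5.94 in FLs and 4.48 in HLs, against 3.96 and 3.53 for the rest. Within classes of FL fold, the intervals of the members and of the pairs over 25 bp apart overlapped, which does not show that the shares were equal. Between folds of 5 and 7 the share was 9.41% (6.75 to 13.0%) of 340 members and 7.24% (4.51 to 11.4%) of 221 pairs, and between 7 and 10 it was 19.4% (14.1 to 26.1%) of 165 and 13.2% (7.12 to 23.3%) of 68. At 10 or more the order was turned, with 14 of 63 members and 5 of 13 pairs. Between folds of 3 and 4 the shares were 2.79% and 3.24%. They were 2.03% of members and 1.2% of pairs below 3, and 8.7% and 7% between 4 and 5.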

How the data were processed

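The data were the peak lists of 1 FL and 1 HL Meis ChIP library. The authors aligned reads to mm9 with BWA, marked duplicates and ran MACS2 on each limb with its own input, splitting peaks into summits (the submitters' processing notes also name CASAVA 1.8.2 and cutadapt 1.3). The fold enrichment the authors deposited is a ratio of ChIP signal to local background. The −log10 p, the −log10 q and the score (−log10 p rescaled) of each summit are deposited as the authors' caller gave them, and no test was added. The authors' files give the summit as an offset from the region start. Positions are printed counted from 1.

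The members and gene lists were chosen with earlier results of these data known. A region with several summits took the highest fold. Shares have 95% Wilson intervals and medians order-statistic intervals, which cover counting error only. The peak lists give no read count per region, and the read totals of the libraries, which the study states, were not used here. Members were named by rule: the 12 with the highest lower fold, the 5 most unequal in each direction (of members with q up to 0.05 in both limbs), the 3 largest groups (gaps up to 50 kb) and the highest member within 100 kb of each listed gene. Promoter members and the pairs at Fgf10 and Hand2 were chosen after their values were seen.

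mm9 gene starts were derived from summit-to-gene distances in the part used here of the study's list of genes at shared peaks, with strands from GENCODE M21. Of 767 genes with several distances, 762 gave 1 start within 2 bp, and 2066 starts were kept. No coordinate was converted between builds, so sequences of members outside promoters were not used here. The alternatives changed the summit distance, the overlap, the p or q cutoff, the windows and the gaps, and left out X. The steps were tested on simulated data, in Python 3.11.15 (numpy 2.4.6, pandas 2.3.3, scipy 1.17.1; figures by matplotlib 3.10.9).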

Additional observations from a re-analysis of the deposited data

How the results depend on the processing

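The number of members followed the distance allowed: 774 at 10 bp, 2568 at 50 bp and 3249 at 100 bp, against 1678. It was 1066 with p at most 0.0005 and 533 with q up to 0.05 in both limbs. The median summit distance of all pairs, 28 bp, became 15 bp where both limbs had q up to 0.05, and 23 bp where regions shared at least 50% of each. At 50 bp the median FL fold was 3.94 and the HL fold 3.43. With p at most 0.0005 in both limbs they were 4.87 and 4.15 and Pearson r was 0.453. With 50% of each region shared, the HL fold was 3.71, the log2 ratio 0.15, the share higher in FLs 59.9% and r 0.569. The share of members passing q at most 0.05 in each limb was 34.4% at 10 bp, 27.0% at 50 bp, 35.6% with 50% shared and 50% with p at most 0.0005 in both limbs, and p at most 0.0005 in its place gave 63.5%. Members with q at most 0.05 in both limbs had median lengths of 301 bp in FLs and 262 bp in HLs. The Tbx5-Hoxc10 share was 5.84% within 50 bp and 14.8% among members passing that q in both limbs. Listed genes with a member numbered 17 within 50 kb, 60 within 500 kb and 17 with members passing that q, against 37. Groups of 3 or more numbered 17 with gaps up to 25 kb and 48 with gaps up to 100 kb, against 28. Most of the 53 alternatives concern counts, folds, lengths, distances or q shares, which have no direction to turn. The log2 ratio and the share higher in FLs leaned to FLs in all of their alternatives. Of the 53, 23 stayed within the interval, or within 1.5 times the count, of the values reported. The alternatives change which pairs are counted by construction.

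No paired analysis was possible because each limb had 1 ChIP library. Without replicates, leaving out a library leaves no comparison. Whether a region passes a cutoff can depend on depth, and the reads behind each region were not used here, so a region found in 1 limb only, or with q above 0.05 in 1 limb, does not show that binding differed.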
